A study of Zea mays with 36 samples.

Results

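Transcripts of maize histone acetyltransferases and histone deacetylases were compared between the shoot apical meristem (SAM) and the whole seedling. The genes were chosen by name: a gene belonged to the group if its symbol or a synonym in the annotation of the slides began with hac, hag, haf, hda or hdt followed by 3 digits. The rule found 27 of 30329 probes, standing for 6 of 740 named genes: the acetyltransferase genes hac106 and hac108, the deacetylase genes hda106 and HDA108, and the deacetylase genes hdt102 and hdt103. No measured value entered the choice. A gene table of the RefSeq annotation lists 11 maize genes with such names, and 5 of them (hda101, hda102, hda110, hda113 and hag101) had no probe named for them, so the values below describe a subset of the family.

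Histone acetyltransferases add acetyl groups to lysines of the histone tails, which loosens chromatin and marks transcribed genes, and histone deacetylases remove them again. In plants the HAC class is related to the animal coactivators CBP and p300, the HDA class to the yeast deacetylase Rpd3 and its relatives, and the HDT class, also called HD2, is a nucleolar type of deacetylase found in plants. In shoot meristems such enzymes take part in setting which genes dividing stem cells and young leaf primordia express.

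The plants, of inbred line B73, were sampled at 14 days. SAM RNA came from meristems with the 2 youngest stages of leaf primordia (P0 and P1), cut out by laser capture and pooled from 6 to 10 meristems. Seedling RNA came from the above-ground portions of 6 seedlings of the same batch, which still held their meristems. The 6 biological replicates are pairs of such pools, amplified with T7 polymerase and hybridised with Cy3 and Cy5 to 1 slide of each of 2 sets of cDNA slides, so that there were 6 slides a set. SAM RNA carried Cy3 in replicates 1, 3 and 5 and Cy5 in replicates 2, 4 and 6, and each slide has 3 deposited scans, here called low, medium and high after their laser power and gain. SAM RNA was extracted with a PicoPure kit and seedling RNA with a home-made Trizol solution, so tissue and extraction cannot be told apart. Because whole pools were measured, more cells of a type and more RNA per cell cannot be told apart either.

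Each value is a log2 ratio of the 2 channels of a slide, centred on the median of the scan and averaged over the 3 scans. The tissue in the numerator is not given in the sources used here. Green-leaf genes, among them ssu1, ME1, mdh6, psad1, psah1, psan1, lhcb5, lhcb6, Ppdk1, por and oy1, had a median log2 ratio of -5.72 on slide set 1 and -5.32 on slide set 2, so a negative value is taken as the seedling side and a positive value as the SAM side. This direction is likely and not stated. Of 8 green-leaf genes on slide set 1, 7 passed toward the seedling and Cab-m7 passed toward the SAM at 1.09, while all 9 on slide set 2 passed toward the seedling. The meristem and primordium genes kn1, lg3, rs2, rld1 and TE1, with lbl1 on slide set 1 and fea2 on slide set 2, all passed on the SAM side (6 of 6 on each set), with median log2 ratios of 1.58 and 1.91. On slide set 1 the call of kn1 (0.30, limma, adjusted p = 0.0322) was lost when the dye term or replicate 1, 2, 3, 4 or 6 was left out. It was also lost with SAM in Cy3 alone. By the median of its probes kn1 lay at -0.045, and without probes whose dye term passed at -0.22, and neither value passed. The calls of lg3 and Cab-m7 were lost with SAM in Cy3 alone. One scan, the high scan of replicate 4 on slide set 1, has a source label that names seedling for both dyes, and its sample name, which places SAM in Cy5, was followed. The number of slides limits the precision.

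Of the 6 genes, 5 were higher on the SAM side, hda106 by only 1 of its 2 probes, and 1, hac108, was lower on the SAM side. On slide set 1 all 5 measured genes passed on the SAM side (limma, adjusted p under 0.05), where 27.1% of 582 named genes did so and 45.2% passed in the other direction. Slide set 2 had 3 of 4 genes passing toward the SAM and 1 toward the seedling, where 27.9% and 45.7% of 455 named genes did. The median log2 ratio of the member genes was 1.27 on slide set 1 and 1.15 on slide set 2, beside -0.24 and -0.22 over all named genes of the sets. Counted by probe, 18 of 20 probes on slide set 1 passed toward the SAM and 2 toward the seedling, where 31.5% and 31.0% of all probes did. On slide set 2 the counts were 6 and 1 of 7 probes, where 33.4% and 31.2% of all probes passed. The median log2 ratio over member probes was 1.38 and 1.37, beside 0.044 and 0.032 over all probes.

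**Figure D1:**
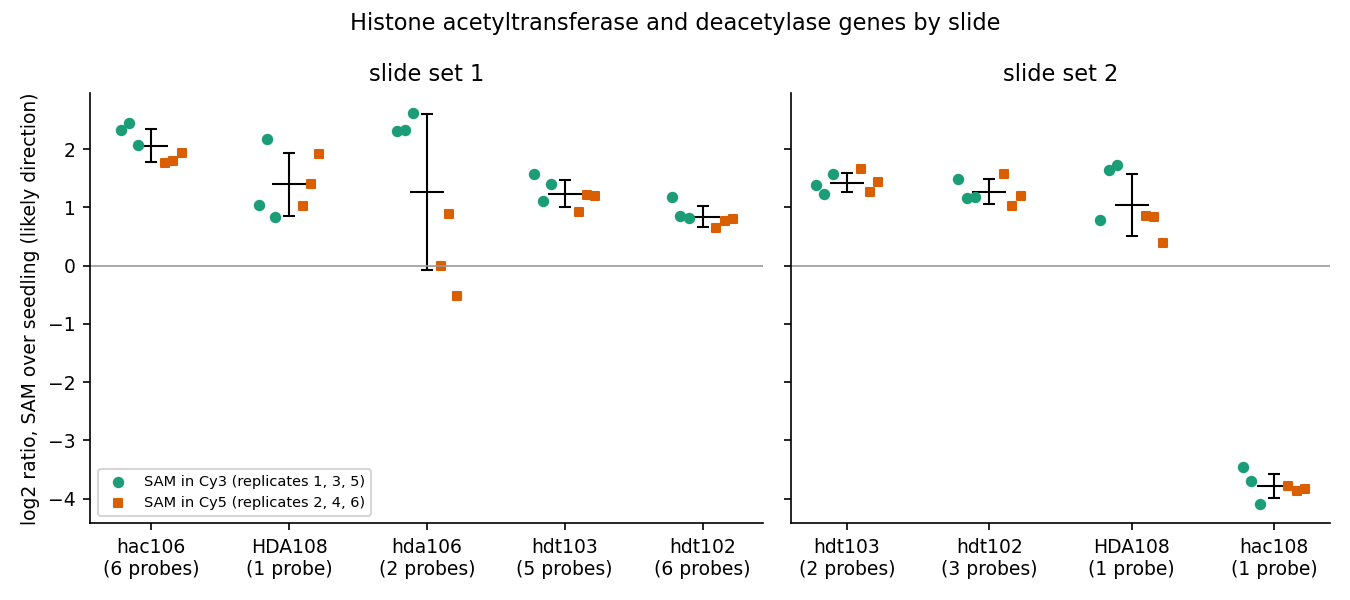
Log2 ratio of each gene on each of 6 slides per set, by the dye that SAM RNA carried, with the mean and SD of the slides in black; genes are ordered by their mean. On slide set 1 hac106 lies highest with a mean of 2.06 and hda106 spreads most, and on slide set 2 hac108 lies at -3.79 on its own.

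The acetyltransferase gene hac106, which the annotation also calls hat1, had the highest ratio of the group on slide set 1. With SAM in Cy3 its gene values were 2.33, 2.45 and 2.07, and with SAM in Cy5 they were 1.76, 1.80 and 1.93. All 6 slides lay on the SAM side, and the values of the 2 dye orientations did not overlap, although the dye term did not pass at the gene level (adjusted p = 0.153). The mean log2 ratio was 2.06 ± 0.28 (SD, n = 6), a 4.16-fold higher signal on the SAM side (limma, adjusted p = 8.82e-06), and hac106 ranked 15 of 582 named genes from the SAM end.

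All 6 probes of hac106 passed on the SAM side, with means from 1.67 for probe 224 to 2.46 for probe 10586. Probe 224 gave 2.29, 2.32 and 2.43 with SAM in Cy3, and 0.92, 1.28 and 0.76 with SAM in Cy5. The ratio was thus above 0 on every slide but higher with SAM in Cy3. Probes 2517 and 3972 behaved in the same direction, with means of 1.86 and 2.07 and differences between the dye orientations (Cy3 minus Cy5) of 1.30 and 1.48, beside 1.36 for probe 224. The dye term of these 3 probes passed (adjusted p = 0.0332 for probes 224 and 2517, 0.0361 for probe 3972), where 12.7% of all probes on slide set 1 passed. Averaged together, they gave 2.55 with SAM in Cy3 and 1.18 with SAM in Cy5. The other 3 probes, 7769, 10586 and 11097, gave 2.01 and 2.49, a difference in the opposite direction whose dye term did not pass in any of them. The mean over both orientations was 2.25 for these 3 probes and 1.86 for the 3 whose dye term passed. The probes were split by their own dye term, so the contrast between the 2 groups by dye follows from the split. Probe 11097, whose term did not pass, also had orientations that did not overlap, with means of 1.60 (SAM in Cy3) and 2.42 (SAM in Cy5). The probes of hac106 differed from each other in ratio (limma diffSplice, adjusted p = 0.00556), as did those of 55.4% of the 296 genes with several probes on that set. That call was lost without the dye term (adjusted p = 0.463) and without replicate 6 (adjusted p = 0.0541).

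The acetyltransferase gene hac108 was measured by a single probe, 6707, on slide set 2. It also carries the synonym ham101, a name of the MYST class of acetyltransferases, so its class is not settled by its names. It gave -3.46, -3.70 and -4.09 with SAM in Cy3, and -3.79, -3.86 and -3.84 with SAM in Cy5. The 2 orientations overlapped and all 6 slides lay far on the seedling side. The mean log2 ratio of -3.79 ± 0.21 (SD, n = 6) stood for a 13.8-fold lower signal on the SAM side (limma, adjusted p = 2.22e-07). It ranked 34 of 455 named genes from the seedling end, and the scans gave -3.93, -3.69 and -3.74 at low, medium and high power. It thus lay opposite to hac106, but on another slide set, and with 1 probe there was no second clone to set beside it. Single probes did go against other probes of their gene here. Probe 1617 of hda106 had a mean opposite in sign to that of the other probe, but its slides lay opposite only with SAM in Cy5. Cab-m7 stood at 1.09 by 1 probe on slide set 1 and at -4.28 by 3 probes on slide set 2.

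The deacetylase gene hda106 was measured by 2 probes on slide set 1 whose means disagreed in direction. Probe 5916 gave 3.64, 3.98 and 3.70 with SAM in Cy3 and 2.97, 3.30 and 3.02 with SAM in Cy5. Every slide lay on the SAM side, with a mean log2 ratio of 3.43 ± 0.40 (SD, n = 6), the highest of all member probes (limma, adjusted p = 3.36e-06). Probe 1617 gave 0.97, 0.68 and 1.54 with SAM in Cy3, and -2.98, -1.53 and -4.06 with SAM in Cy5. Its sign followed the dye, with 3 slides on each side, and its mean of -0.90 ± 2.31 (SD, n = 6) passed only narrowly on the seedling side (limma, adjusted p = 0.0425). The call for probe 1617 was lost without replicates 1, 2, 3, 5 or 6, in the low scan alone and without the dye term, and with SAM in Cy3 alone the probe lay on the SAM side at 1.07 (adjusted p = 0.0153). The difference between its dye orientations was 3.92 (adjusted p = 0.0332), and that between the 2 probes was 4.33 (limma diffSplice, adjusted p = 2.19e-06 for the probe).

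The gene value of hda106 is the mean of these 2 probes and describes neither. It ran from -0.52 to 2.62 over the slides with a median of 1.59, and its mean was 1.27 ± 1.34 (SD, n = 6; limma, adjusted p = 0.00101). Means were 2.42 with SAM in Cy3 and 0.12 with SAM in Cy5, where the value no longer passed on its own (adjusted p = 0.768). hda106 was the only member gene whose dye term passed (difference 2.30, adjusted p = 0.0395), where 3.61% of named genes on slide set 1 passed and 3.3% on slide set 2. This dye call was not stable. It was lost in each scan alone and without replicates 1, 2, 3, 5 or 6 (limma, adjusted p up to 0.134). The difference stayed at 1.98 to 2.68 when a replicate was left out. Most dye calls of the set were lost in the same way: 21 named genes passed with all slides, and 2, 6, 2, 6 and 10 without replicates 1, 2, 3, 5 and 6. In the low, medium and high scan alone 16, 21 and 31 passed.

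HDA108, an Rpd3-type deacetylase whose synonym is hd1b, was measured by 1 probe on each set. Probe 9209 on slide set 1 gave 1.04, 2.17 and 0.84 with SAM in Cy3 and 1.02, 1.40 and 1.92 with SAM in Cy5. Probe 8897 on slide set 2 gave 0.79, 1.64 and 1.73 with SAM in Cy3, and 0.84, 0.84 and 0.38 with SAM in Cy5. All 12 slides lay on the SAM side, and the dye orientations overlapped on both sets. The mean log2 ratio was 1.40 ± 0.54 (SD, n = 6; limma, adjusted p = 0.00119) on slide set 1 and 1.04 ± 0.53 (SD, n = 6; limma, adjusted p = 0.000701) on slide set 2, or 2.63-fold and 2.05-fold. Their difference was 0.36 (SE 0.29) and did not pass (limma, adjusted p = 0.379); it was 0.12 without replicate 6 and 0.61 without replicate 5.

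**Figure D2:**
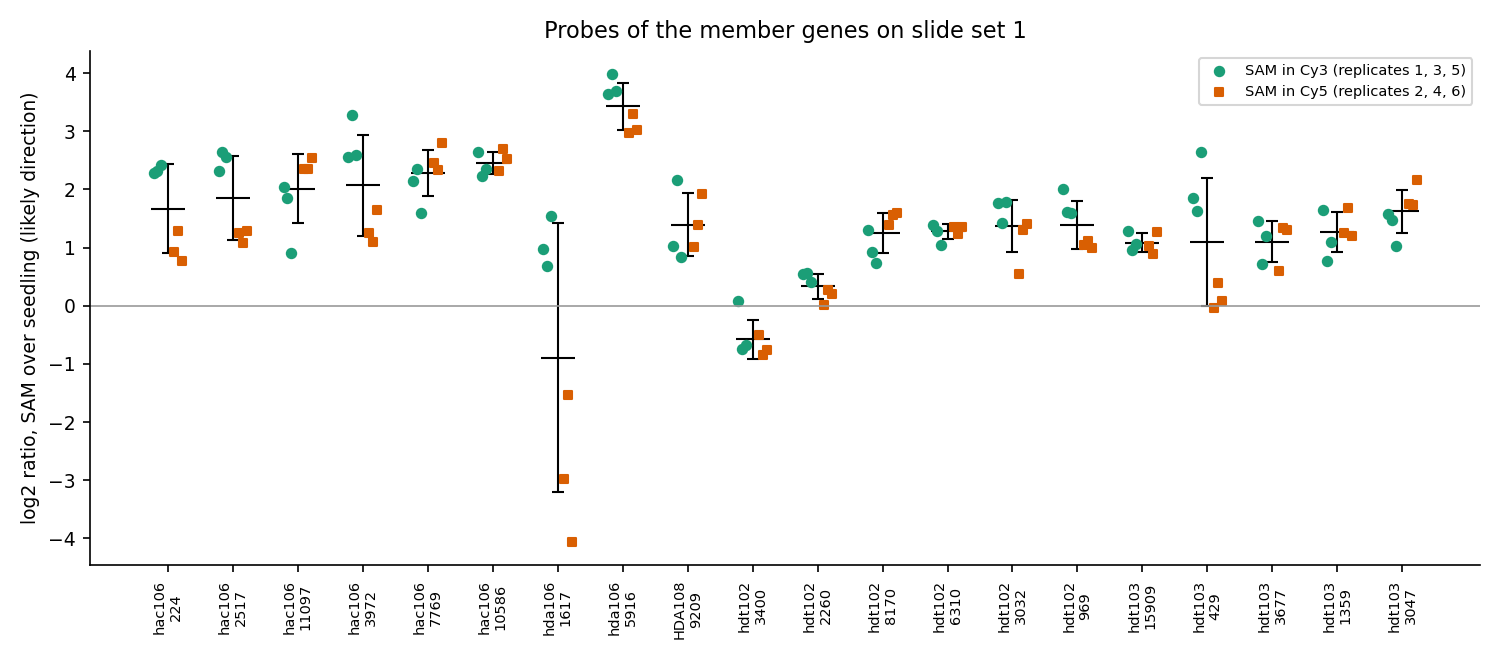
Log2 ratio of each of the 20 probes of slide set 1 on the 6 slides, grouped by gene and labelled with the probe number; green circles are slides with SAM in Cy3, orange squares slides with SAM in Cy5, and black bars the mean and SD. Probe 1617 of hda106 changes sign with the dye, and probe 3400 of hdt102 lies below 0 while the other probes of that gene lie above it.

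hdt103, also named HDT1, HDT3 and Zm-HD2c, had close values on both sets. On slide set 1 its gene value ran from 0.92 to 1.56 over the 6 slides, with a median of 1.20. On slide set 2 it ran from 1.24 to 1.65 with a median of 1.41. Every slide of both sets lay on the SAM side. The mean log2 ratio was 1.24 ± 0.23 (SD, n = 6; limma, adjusted p = 6.82e-05) on slide set 1 and 1.42 ± 0.17 (SD, n = 6; limma, adjusted p = 1.15e-05) on slide set 2, or 2.35-fold and 2.68-fold. The sets differed by -0.19 (SE 0.13, set 1 minus set 2), which did not pass (limma, adjusted p = 0.317) and was -0.080 without replicate 2.

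All 7 probes of hdt103 passed on the SAM side. The means of the 5 on slide set 1 were 1.08 for probe 15909, 1.09 for probe 429, 1.10 for probe 3677, 1.27 for probe 1359 and 1.62 for probe 3047. Those on slide set 2 were 1.37 for probe 2560 and 1.48 for probe 12775. The spread between probes did not pass on either set (limma diffSplice, adjusted p = 0.0969 and 0.692), although it did on slide set 1 without replicate 5 (adjusted p = 0.0400). Probe 429 stood out by dye: it gave 1.85, 1.63 and 2.65 with SAM in Cy3, but -0.045, 0.40 and 0.077 with SAM in Cy5 (difference 1.90, adjusted p = 0.0332). With SAM in Cy5 alone it did not pass (0.14, adjusted p = 0.566).

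hdt102, also named HD2b and HDT2, was likewise higher on the SAM side on both sets, with the smallest mean of the group on slide set 1. Its gene value ran from 0.64 to 1.18 on slide set 1, with a median of 0.81, and from 1.02 to 1.58 on slide set 2, with a median of 1.19. All 12 slides lay on the SAM side and the ranges of the sets overlapped. The mean log2 ratio was 0.84 ± 0.18 (SD, n = 6; limma, adjusted p = 0.000251) on slide set 1 and 1.27 ± 0.21 (SD, n = 6; limma, adjusted p = 3.7e-05) on slide set 2, or 1.79-fold and 2.41-fold, so a 2-fold limit ends the call on slide set 1. The difference of -0.43 (SE 0.13, set 1 minus set 2) passed (limma, adjusted p = 0.0296), as did that of 34.7% of the 297 genes on both sets. The same RNA pairs were hybridised to both sets. The sets carry different clones and were hybridised and scaled apart, so this difference alone cannot tell the clone from the slide set. With the replicate number as a block the adjusted p was 0.0533, and the call was also lost without replicate 2 (adjusted p = 0.0975), 3 (0.0626), 5 (0.0601) or 6 (0.0714). The gene value on slide set 1 includes probes 3400 and 2260, with means of -0.58 and 0.34. Its other probes there had means of 1.25 to 1.39, and the probes on slide set 2 had means of 0.98 to 1.42. The part of single probes in the difference was not tested.

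The 6 probes of hdt102 on slide set 1 fell into unlike values. Probes 8170, 6310, 3032 and 969 had mean log2 ratios of 1.25, 1.28, 1.37 and 1.39. Probe 2260 had a mean of 0.34 ± 0.21 (SD, n = 6; limma, adjusted p = 0.0293), with slides from 0.021 to 0.56. Probe 3400 gave 0.075, -0.74 and -0.67 with SAM in Cy3, and -0.51, -0.85 and -0.77 with SAM in Cy5. It lay on the seedling side on 5 of 6 slides, at a mean of -0.58 ± 0.34 (SD, n = 6; limma, adjusted p = 0.0124), and its dye orientations overlapped; with SAM in Cy3 alone it did not pass (-0.44, adjusted p = 0.167). Against the other probes of the gene, probe 3400 was lower by 1.70 (limma diffSplice, adjusted p = 2.59e-12) and probe 2260 was lower by 0.61 (adjusted p = 0.000251).

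The disagreement among hdt102 probes on slide set 1 (adjusted p = 6.41e-12) held under the other variance prior, without the dye term and without each replicate, with adjusted p up to 2.32e-08. The 3 probes on slide set 2 had means of 1.40 for probe 8104, 0.98 for probe 10279 and 1.42 for probe 12968. Probes 8104 and 12968 lay close to the 4 higher probes of slide set 1, and probe 10279 lay below them. The 3 probes differed from each other by a narrow margin (limma diffSplice, adjusted p = 0.0418, where 43.6% of 195 genes passed). That call was lost without the dye term and without each of replicates 1, 3, 4, 5 and 6. Probe 2260 also lost its call when either dye orientation or the high scan was used alone, when the dye term was dropped and when replicate 1, 2, 3, 4 or 6 was left out. Whether the annotated clones of a gene cover the same stretch of its transcript, and whether they bind transcripts of related genes, was not tested.

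Dye dependence among the probes was assessed against all probes of each set. The dye term passed in 5 of 20 member probes on slide set 1, all named above, where 12.7% of all probes passed, and in 0 of 7 on slide set 2, where 8.41% of all probes passed. At an unadjusted p under 0.05 the counts were 7 of 20 and 2 of 7, where 35.5% and 28.0% of all probes lay under it. The values of the 2 orientations did not overlap in 12 of 20 member probes on slide set 1 and 2 of 7 on slide set 2, where 42.8% and 35.6% of all probes did not overlap. All 5 dye calls of the probes were lost in the low scan alone and without replicates 1, 2, 3, 5 or 6 (adjusted p from 0.0523 to 0.103), and that of probe 3972 also in the high scan alone and without replicate 4. All 5 probes had the larger value in the Cy3 orientation.

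Low and high scans were compared within each slide, by the median over the slides of the absolute difference in log2 ratio. Over all probes the median of this difference was 0.198 on slide set 1 and 0.184 on slide set 2, and its 90th percentile was 1.59 and 1.22. Both probes of hda106 exceeded the percentile, probe 5916 at 2.86 and probe 1617 at 2.44, and the other 18 member probes of slide set 1 and the 7 of slide set 2 did not. For probe 1617 the low scan lay farther from 0 than the high scan on the slides that differed most: -6.53 against -2.60 in replicate 6, -5.16 against -1.80 in replicate 2 and 3.63 against 0.48 in replicate 5. On these slides the shifts ran in opposite directions in the 2 dye orientations, so the means of -1.12, -0.80 and -0.77 in the low, medium and high scan hide them. Replicates 3 (SAM in Cy3) and 4 (SAM in Cy5) differed less, by -0.094 and 0.37 (low minus high), and did not follow those directions. Probe 5916 had means of 5.10, 2.72 and 2.48 in the 3 scans. Its slides ran from 2.74 to 6.50 in the low scan and from 2.03 to 3.10 in the high scan, so all stayed on the SAM side while the size of the ratio differed. Probe 9209 of HDA108 had means of 2.13, 1.12 and 0.93 in the low, medium and high scan. Probe 15909 of hdt103 went from 1.36 and 1.30 in the low and medium scan to 0.59 in the high scan, and probe 10279 of hdt102 from 1.30 and 1.17 to 0.48. Probes 5916, 9209, 15909 and 10279 each passed on the SAM side in every scan alone. Some slides lay near 0 in the high scan, where probe 10279 ran from -0.023 to 1.17 and probe 15909 from 0.0074 to 1.03. The largest adjusted p of probe 10279 under any alternative was 0.0486 (limma).

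**Figure D3:**
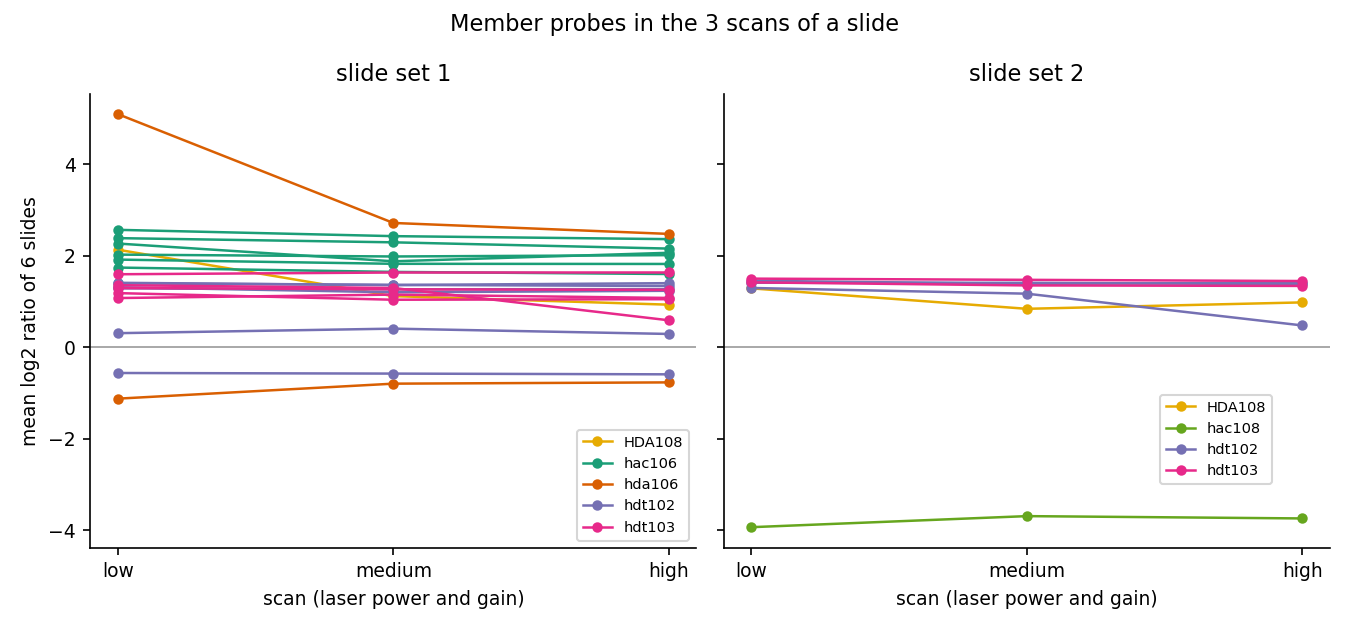
Mean log2 ratio over 6 slides of each member probe in the low, medium and high scan, coloured by gene. The mean of probe 5916 of hda106 falls from 5.10 to 2.48, with smaller shifts in probes of HDA108, hdt103 and hdt102. The means of probe 1617 of hda106 (lowest line of slide set 1) hide opposite shifts on the slides that differed most.

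The members were then placed in the order of their mean ratios and neighbours were compared slide by slide. These are differences between ratios, not between transcript levels, since each probe has its own signal strength. On slide set 1 the order was hac106, HDA108, hda106, hdt103 and hdt102. It is an order of gene values, of which that of hda106 is the mean of 2 discordant probes. That of hdt102 includes probes 3400 and 2260 at -0.58 and 0.34, beside 1.25 to 1.39 for its other probes. The gene value of hdt103 was 1.24. hac106 exceeded HDA108 by 0.66 ± 0.52 (SD, n = 6) on 6 of 6 slides, and hdt103 exceeded hdt102 by 0.39 ± 0.12 (SD, n = 6) on 6 of 6 slides. Both had an exact two-sided sign-flip permutation p of 0.0313, the smallest that 6 slides allow, and 0.0729 after adjustment over the 7 neighbour pairs. Neither passed. A pair at that smallest p can pass only if most of the 7 pairs lie there too, so the test cannot decide these differences. The pairs were also formed by ordering the same slide values.

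HDA108 against hda106 and hda106 against hdt103 differed by 0.13 ± 1.55 and 0.034 ± 1.22 (SD, n = 6), with 3 of 6 slides each way (exact permutation p = 0.875 and 1.0). On slide set 2 hdt103 exceeded hdt102 by 0.16 ± 0.17 (SD, n = 6) on 5 of 6 slides (exact permutation p = 0.125), and hdt102 exceeded HDA108 by 0.23 ± 0.62 on 4 of 6 (exact permutation p = 0.406). HDA108 and hac108 lay 4.83 ± 0.63 (SD, n = 6) apart, again at the smallest exact permutation p of 0.0313, and 0.0729 after adjustment. They were the only neighbours in either order whose slide values did not overlap.

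**Figure D4:**
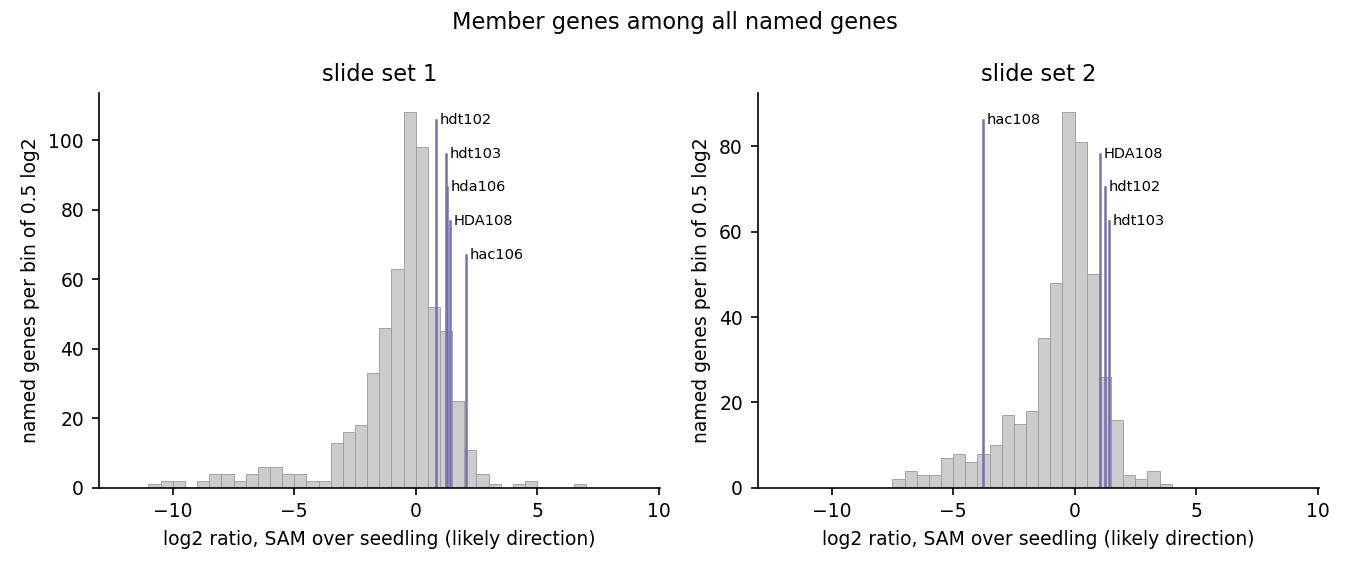
Number of named genes in bins of 0.5 log2 on each slide set, with the mean log2 ratio of each member gene as a purple line. The lines of slide set 1 lie between 0.84 and 2.06, right of the peak of the distribution, and hac108 on slide set 2 lies in the left tail at -3.79.

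Genes whose products work with these enzymes were also described. The list was chosen by name and held the nfc genes (WD-repeat proteins related to MSI1, which bind histones and deacetylases), the retinoblastoma-related genes rbr3 and RBR1, the GCN5 adaptor gene ada2 and the bromodomain gene gte102, whose type reads acetylated histones. All 5 of the 5 genes measured on slide set 1 passed toward the SAM, where 27.1% of all named genes did, and their median was 1.17. Of the 7 on slide set 2, 5 passed toward the SAM and 2 missed the threshold, and their median was 1.15. Over all named genes of that set 27.9% passed toward the SAM. On slide set 1 rbr3 had a mean of 2.22 ± 0.53 (SD, n = 6; limma, adjusted p = 0.000128) and nfc101 one of 1.72 ± 0.42 (SD, n = 6; limma, adjusted p = 3.24e-05).

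Among the 7, nfc102 had a mean of 1.80 ± 0.14 (SD, n = 6; limma, adjusted p = 1.93e-06) and nfc101 one of 1.78 ± 0.18 (SD, n = 6; limma, adjusted p = 1.74e-06). The values of ada2 differed between the sets by 0.88 (SE 0.20; limma, adjusted p = 0.00634): 1.05 ± 0.47 on slide set 1 by 1 probe (adjusted p = 0.00126), and 0.17 ± 0.20 on slide set 2 by 2 probes (adjusted p = 0.155). gte102, measured on slide set 2 only, had a mean of 0.13 ± 0.21 (adjusted p = 0.227). No gene with another acetylation enzyme name (ham or srt) was measured apart from hac108 with its synonym.

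**Figure D5:**
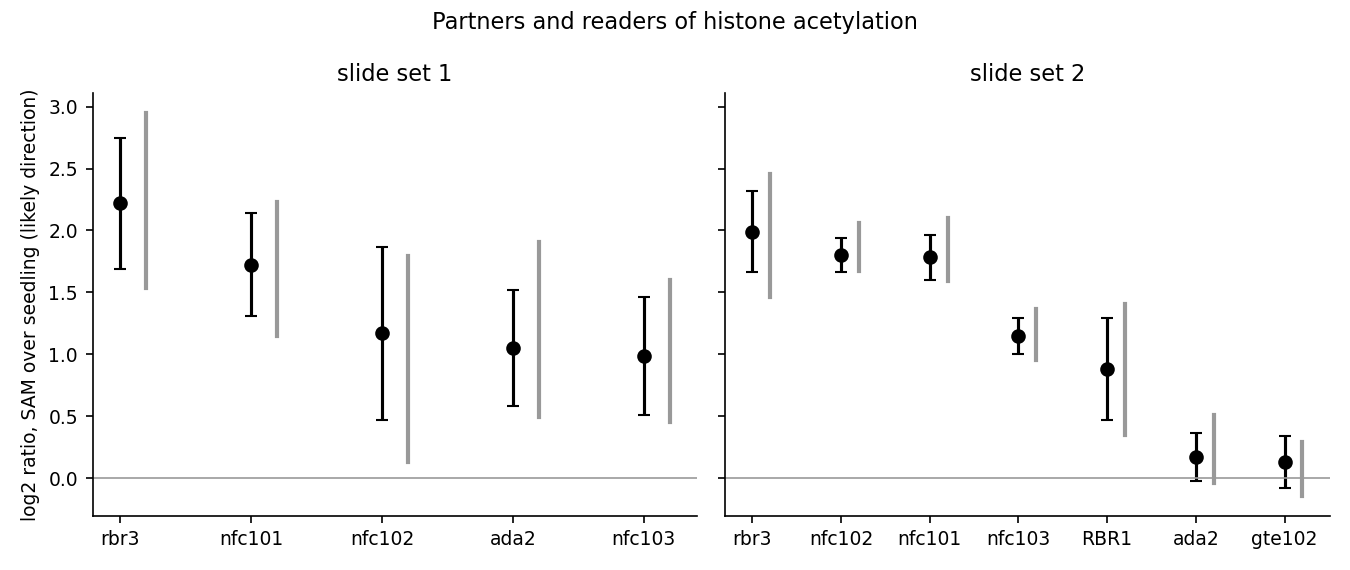
Mean log2 ratio with SD over 6 slides (black) and the range of the slides (grey) for partner and reader genes of histone acetylation on each set, ordered by mean. All slides of the 5 genes on slide set 1 lie above 0, while ada2 and gte102 on slide set 2 lie near 0 at 0.17 and 0.13.

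Other chromatin genes had lower and more mixed ratios. Slide set 1 held 23 of them, with a median of 0.41: 12 passed toward the SAM, 2 toward the seedling and 9 missed the threshold. Over all named genes of that set 27.1% passed toward the SAM and 45.2% toward the seedling. Slide set 2 held 19, with a median of 0.59: 12 passed toward the SAM, 2 toward the seedling and 5 missed the threshold. There 27.9% of all named genes passed toward the SAM and 45.7% toward the seedling. The Polycomb gene fie2 (1.74 ± 0.64) and nfd106 (1.45 ± 0.18), of an HMG-box class, had the smallest adjusted p on the SAM side of slide set 1, and nfa103 (1.57 ± 0.36), of the nucleosome assembly class, and the histone H2B gene his2b5 (1.20 ± 0.18) on slide set 2. The dye term of fie2 passed (Cy3 minus Cy5 1.14, limma, adjusted p = 0.0396), where 3.61% of named genes on slide set 1 did. On the seedling side stood nfa104 (-0.67 ± 0.49) and the methyl-CpG-binding domain gene mbd106 (-0.33 ± 0.26) on slide set 1, and mbd115 (-0.50 ± 0.31) and mbd113 (-0.33 ± 0.30) on slide set 2 (SD, n = 6). These seedling-side calls were not stable: mbd113 lost its call in the low and the high scan, in each dye orientation and without replicates 2, 3, 4, 5 or 6. mbd115 lost it in the medium scan and with SAM in Cy5 alone, mbd106 without replicate 3, without the dye term and with SAM in Cy3 alone, and nfa104 with SAM in Cy5 alone.

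The named genes whose 6 slide values lay nearest to those of a member were found by root mean square difference in log2 ratio. For hac106 they were mad2, a spindle checkpoint gene, at 0.220 and HRGP, a hydroxyproline-rich cell wall protein gene, at 0.348, beside a median of 2.38 over all named genes. For hda106 they were stm1 (stomatin1) at 0.381 and HMT-2 at 0.506, measured against a gene value that is the mean of 2 discordant probes. Both also differ by dye: stm1 had means of 2.16 with SAM in Cy3 and -0.0022 with SAM in Cy5, and HMT-2 of 2.59 and 0.24. For hdt102 on slide set 1 they were Adh1-1F, an alcohol dehydrogenase gene, at 0.224 and HMG11 at 0.229. For hdt102 on slide set 2 they were SRP2B at 0.185 and hdt103 at 0.223, so the 2 HDT genes lay close there. For hac108 they were IDDveg9, also named Nkd1, at 0.303 and the carotenoid cleavage dioxygenase gene CCD at 0.330, with means of -3.61 and -3.58.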

How the data were processed

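The authors deposited, for each slide set, a log ratio per spot and scan. These deposited ratios were taken to be on the natural log scale, and log2 values were computed from them. The base is not stated and was read from values shared by several spots of a scan. On slide set 1, 47400 pairs of such values were compared, and 8571 on slide set 2. Pairs spaced by 2 times the natural log of a whole number occurred 126 and 31 times (tolerance 2e-05). For log2 the counts were 2 and 0, and for log10 12 and 3. How many pairs match each base by coincidence was not tested, so the fold values rest on this reading of the base. How the authors handled background and normalization is not given in the sources used here. The columns had medians from -0.080 to 0.057 (log2) before centring. Slides of opposite dye orientation correlated at 0.701 to 0.861 over the probes of slide set 1 and 0.597 to 0.745 on slide set 2, so the values were taken to run 1 way.

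Of 19200 and 14080 spots, 898 and 2001 held no value, and 53 identical spots counted as 1 probe. Probes were named from the platform annotation (1787 and 753 with 1 gene; 23 with several were not used for genes), and symbols came from the RefSeq table of Zm-B73-REFERENCE-NAM-5.0, which held 561 of 582 and 441 of 455 genes. Scans were centred on their median and averaged per slide, and a gene value is the mean of its probes.

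limma 3.58.1 in R 4.3.3 (with the package data.table, version 1.17.8) fitted an intercept and a dye term per set, with Benjamini-Hochberg adjustment over all probes or genes of the set and called a value at an adjusted p under 0.05. Each SD is that of the 6 slides. diffSplice compared the probes of a gene, and a fit over 12 slides compared the sets. Replicate numbers mark the same RNA pairs on both sets, by the sample names in the labels. Deviations of same-numbered slides correlated at 0.008 to 0.123 over 297 genes, and at 0.053 to 0.263 with the dye effect removed. Python 3.11.15, pandas 2.3.3, numpy 2.4.6 and matplotlib 3.10.9 handled and drew the data, and the scripts were tested on simulated data.

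The members and lists were chosen with earlier results of these data known. Named were all members, the measured tissue markers, for each list and direction, the 2 genes of smallest adjusted p past the threshold and the 2 nearest genes of hac106, hac108, hda106 and hdt102. Members of the partner list beyond those were named after their values were seen. Alternatives covered centring, scaling, single scans, the dye term, the variance prior, each dye orientation, a 2-fold limit, replicates left out, the gene value and a replicate block. Leaving out probes with a passing dye term was added after seeing the data.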

Additional observations from a re-analysis of the deposited data

Results flagged for a closer look

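Of 36 groups of 6 slides, 2 held a slide far from the others, and chance gives about 1 in 20. Probe 3400 of hdt102 on slide set 1 was at 0.075 on the slide of replicate 1, above the other 5, which ran from -0.85 to -0.51. Probe 10279 of hdt102 on slide set 2 was at 1.43 on the slide of replicate 2, above the other 5, which ran from 0.75 to 0.999.

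The ratio differed between the slide sets for hdt102, by -0.43 (set 1 minus set 2), and for the partner gene ada2, by 0.88. With the replicate number as a block the difference of hdt102 did not pass (limma, adjusted p = 0.0533), while that of ada2 did (adjusted p = 0.00741). The ratio also differed between the dye orientations (Cy3 minus Cy5), by 2.30 for the gene value of hda106, 3.92 for its probe 1617, 1.36, 1.30 and 1.48 for probes 224, 2517 and 3972 of hac106 and 1.90 for probe 429 of hdt103. The part of the clone in the differences between sets, and of the dye in the others, was not tested beyond these values.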

How the results depend on the processing

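Of 162 values of member genes under alternatives other than the 2-fold limit, 161 kept their direction and call. The exception was hda106 with SAM in Cy5 alone (0.12). The 162 include ratios that could not move. No member probe named several genes, and the median of 1 or 2 probes is their mean. Leaving out dye-dependent probes left genes without such probes as they were. The variance prior and the dropped dye term kept each ratio and could change only its call. Under the 2-fold limit hdt102 was lost on slide set 1, leaving 4 of 5 genes there, and 17 of 18 and 5 of 6 probes were left on the SAM side of the sets. Of 405 values of member probes under the other alternatives, 386 kept both, 18 lost the call and 1 reversed, in 4 probes: 1617, 2260, 3400 and 429. Probe 1617 reversed with SAM in Cy3 alone (1.07). Of 2 member probes passing on the seedling side of slide set 1, 1 remained without the dye term, 1 with only the low scan, 0 with SAM in Cy3 alone, 0 at a 2-fold limit and 1 to 2 with a replicate left out; the 2-fold limit removes small ratios by construction.

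A 2-fold limit left 256 genes on slide set 1 (88 toward the SAM, 168 toward the seedling) and 188 on slide set 2 (52 and 136), and 6619 probes (3060 and 3559) and 3875 probes (1737 and 2138). The dye term passed in 21 genes on slide set 1, in 50 after scaling, 1 without dye-dependent probes and 2 to 50 with a replicate left out. On slide set 2 it passed in 15, in 3 in the low scan, 6 in the medium scan, 0 without dye-dependent probes and 6 to 16 with a replicate left out. Reversed were stm1 with SAM in Cy5 alone (-0.0022) and kn1 on slide set 1 by the median of its probes (-0.045) and without dye-dependent probes (-0.22). The cause was not tested.

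With the replicate block, 94 of 297 genes differed between the sets, against 103 without it, and hdt102 lost its call (adjusted p = 0.0533); the block changed no other member call. The number of slides limits what could be detected.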
